A study of Mus musculus with 6 samples.

Results

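Tandem 3-base acceptors are pairs of splice acceptors (3′ splice sites) that lie 3 bases apart at the start of the same exon, so that the spliced mRNA gains or lacks exactly 3 bases. They were taken from the alternative acceptor section of a deposited splicing table as the events whose longer exon form exceeded the shorter by exactly 3 bases. This rule chose 617 of the 3233 alternative acceptor rows (19.1%) and of the 45595 splicing events of all kinds. The 617 rows covered 582 distinct acceptor pairs in 537 genes, which were 5.6% of the 9594 genes in the table, with 308 rows on the plus strand and 309 on the minus strand. The libraries hold RNA of Neuro-2a, a neuroblastoma cell line of the mouse: 3 of the hnRNP DL-/- genotype and 3 of the wild type, per the labels. The labels do not say how the knockout was made, whether it was 1 clone, or whether the libraries of a genotype came from separate cultures, so p-values measure only the spread between these libraries, which may be technical.

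Columns of the table are headed sample 1 and sample 2, with 3 libraries each, and nothing in it ties either heading to a genotype. They are called set 1 and set 2 here, libraries are numbered in the order the table lists them, each difference is set 1 minus set 2, and no genotype is attached to a direction. Each library had 13501749 to 18185394 junction reads over all events, of which 87847 to 114313 fell on tandem 3-base acceptors. Junction reads of Hnrnpdl, the targeted gene, were present in every library, 6657, 5961 and 5961 in set 1 and 8337, 7139 and 6839 in set 2. These are sums over its 5 events in the table, and no tandem 3-base acceptor lay in Hnrnpdl or in its paralogue Hnrnpd. Of 9 neuronal marker genes looked for, 4 had an event in the table (Ncam1, Map2, Gap43 and Elavl3), each with reads in all 6 libraries. A level is a mean over all cells of a library, so a mixture of cells and a mixture of transcripts within each cell cannot be told apart.

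Most introns end in an AG dinucleotide, which is recognised by the smaller subunit of the U2AF factor together with the pyrimidine-rich stretch upstream of it. The second splicing step joins the upstream exon to the bases after that AG. Where a second AG follows directly, the spliceosome can use either one, and the base before each AG affects the choice: C and T are the favoured bases, A is used less well and G is disfavoured. Such NAGNAG acceptors keep the reading frame, and usually add or remove 1 amino acid. When the intron lies between codons (phase 0), the 3 extra bases are themselves a codon; in phases 1 and 2 they straddle codons.

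The sequences below show what the 2 acceptors look like. They were read from GENCODE vM21 transcripts (GRCm38, the assembly of build mm10) on the gene's strand, 5′ to 3′. The 3 bases in capitals are those that the longer form includes and the shorter form leaves in the intron. Members whose intron end was read in a transcript that retains it are given with the last 20 intron bases and the next 6 exon bases. The first 4 end in AG before and within the capitals and were used at widely different levels, Cnbp has TTG before the capitals, and the last 3 have GAG there.
Srsf10 (chromosome 4, plus strand, first capital at 135863523): ttttctggtatgctttttagCAGtagacc
Srsf5 (chromosome 12, plus strand, 80949717): ttcttgccaatttttcatagCAGgtcaag
Eif4g1 (chromosome 16, plus strand, 20681734): tgtcttcatcccttgtctagCAGgctggc
Cnot3 (chromosome 7, plus strand, 3653197): cctggccctgggctcgccagCAGaagcag
Cnbp (chromosome 6, minus strand, 87845323): gcttcttttccttattgttgAAGcctgct
Exosc2 (chromosome 2, plus strand, 31676665): ttgttccttcatcacatgagTAGgcggag
Plcg1 (chromosome 2, plus strand, 160761736): tgtgcacttcccttgctgagCAGgagaac
Spag9 (chromosome 11, plus strand, 94092812): ccctgccctctgcctctgagAAGctgtgg

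The next sequences show the longer form as it is spliced: the last 12 bases of the upstream exon, the 3 extra bases in capitals, and the next 9 bases of the exon. The first 5 are the tested members in phase 0 whose extra codon would be TAG, a stop codon. The other 6 are members with many reads or with some of the largest differences between the sets.
Exosc2 (chromosome 2, plus strand, 31676665): gacctcatcagtTAGgcggaggtc
Mkln1 (chromosome 6, plus strand, 31432936): tggtacagcaagTAGtaccgtgaa
Galt (chromosome 4, plus strand, 41756344): gctaatggggagTAGgtgaatccc
Uqcc1 (chromosome 2, minus strand, 155910467): aacacaagtaagTAGcttcttact
Cep250 (chromosome 2, plus strand, 155974250): cagcttctccagTAGttggagcag
Rbm3 (chromosome X, minus strand, 8143332): ctacagtggcagAAGccagggtgg
Rbm8a (chromosome 3, plus strand, 96630477): gctttggctccgAAGaggggtccc
Pcbp3 (chromosome 10, minus strand, 76771039): ccccacccagatCAGttgaccaag
Rev1 (chromosome 1, minus strand, 38079398): gaggaaaagcagCAGatataccag
Gab2 (chromosome 7, plus strand, 97303024): gtccaggatcaaCAGccacacctt
Myo9b (chromosome 8, plus strand, 71354514): gagcgggccaagCAGagcaaagcc

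The upstream acceptor was the more used one at most tandem sites, and both acceptors were in use at most of them. The measure is the inclusion level, from 0 to 1: the share of junction reads on the longer form after division by the length over which each form can be counted, which was 151 for the longer and 149 for the shorter form at every member. Levels were described for the 487 members (in 439 genes) with a mean of 20 or more junction reads per library, and 130 members fell below that. Their median level was 0.6998, with quartiles of 0.411 and 0.883, against a median of 0.913 and quartiles of 0.132 and 0.988 for the 2179 alternative acceptors at other distances. The level was above 0.5 at 329 members (67.6%). Both acceptors, taken as a level from 0.05 to 0.95, were used at 418 members (85.8%), against 817 of the others (37.5%). A level from 0.2 to 0.8 was found at 251 members (51.5%), against 14.5% of the others. Near-exclusive use of 1 acceptor was less frequent, with 55 members above 0.95 and 14 below 0.05. These contrasts describe events that share the same 6 libraries, and no test was made of them.

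**Figure D1:**
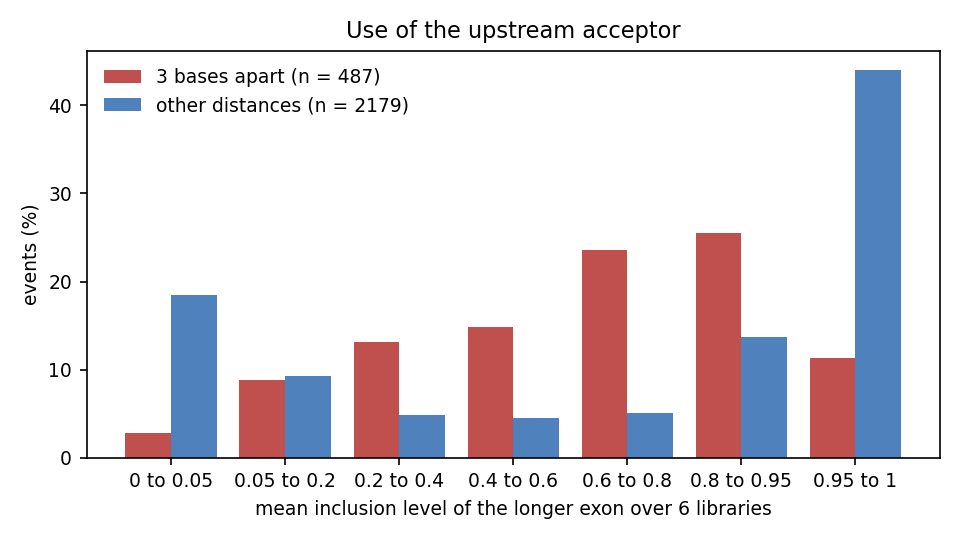
Percent of events (y axis) by mean inclusion level of the longer exon over 6 libraries (x axis, 7 ranges) for 487 acceptors 3 bases apart (red) and 2179 at other distances (blue). The most filled range is 0.8 to 0.95 for acceptors 3 bases apart, with 25.5%, and 0.95 to 1 for the others, with 44.0%.

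Levels at neighbouring distances were higher, again as a description. The median level was 0.994 over 17 events with acceptors 2 bases apart, 0.974 over 87 events at 4 bases, 0.962 over 65 at 5 bases and 0.961 over 52 at 6 bases. Lower medians were found again at 9 bases (0.810, 33 events) and at 12 bases (0.692, 46 events). The quartiles at 12 bases, 0.0901 and 0.98, were wider than the 0.411 and 0.883 at 3 bases, so a like median came from a different spread of levels.

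**Figure D2:**
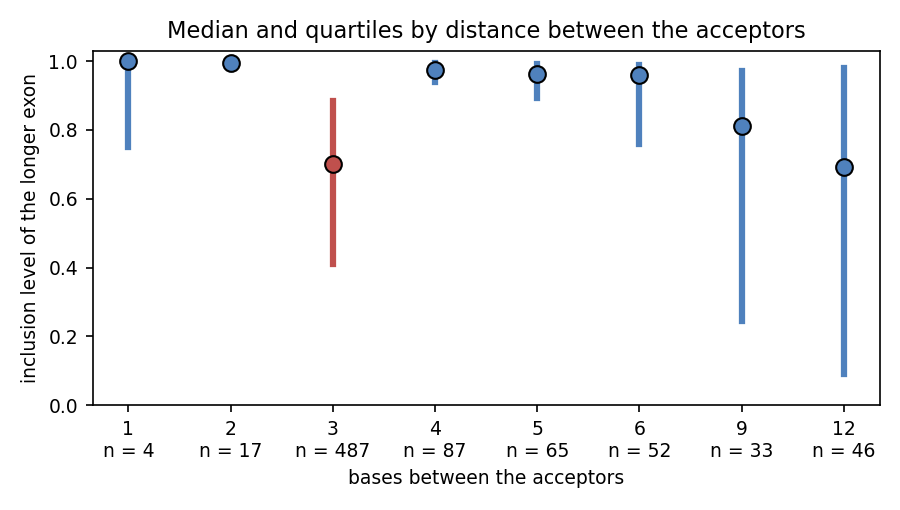
Median (circle) and quartiles (bar) of the inclusion level of the longer exon (y axis) by the number of bases between the acceptors (x axis), with the number of tested events under each distance. The median at 3 bases (red) is 0.6998, while those at 4, 5 and 6 bases lie at 0.974, 0.962 and 0.961.

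The label held at the level of sequence. The 3 extra bases could be read for 615 members, and they ended in AG in 611. CAG made up 430 (69.9%), AAG 106 (17.2%), TAG 61 (9.92%) and GAG 14 (2.28%). The extra bases hold the AG of the downstream acceptor, and the level of the longer form differed with the base before it. Median levels of tested members were 0.986 for GAG (11 members), 0.879 for AAG (91), 0.756 for TAG (46) and 0.631 for CAG (334). The same order was found in each of the 6 libraries, with CAG medians of 0.656, 0.631 and 0.629 in set 1 and 0.630, 0.621 and 0.643 in set 2, and AAG medians of 0.868, 0.913 and 0.874 in set 1 and 0.882, 0.868 and 0.899 in set 2. TAG lay between them, at 0.788, 0.780 and 0.734 in set 1 and 0.766, 0.707 and 0.722 in set 2. One tested GAG member went against its group: Uchl5, a proteasome-bound deubiquitinase, had levels of 0.616, 0.566 and 0.580 in set 1 and 0.615, 0.583 and 0.531 in set 2.

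The triplet before the longer exon, which holds the upstream AG, could be read in 134 members, because only these had a transcript that runs through the intron end. It ended in AG in 131 of them: CAG in 86, TAG in 26, AAG in 16 and GAG in 3. Median levels of those tested ran the other way from the downstream triplets, at 0.741 for CAG (64 members), 0.677 for TAG (20), 0.363 for AAG (10) and 0.00442 for GAG (3). All 3 GAG members used the downstream acceptor almost alone. Exosc2, a subunit of the RNA exosome, stood at 0.00442 over the 6 libraries, Plcg1, phospholipase C gamma 1, at 0.00510, and Spag9, a scaffold of JNK signalling, at 0.00350. Among members with CAG as the extra triplet, the first exon base after it also went with the level: the median was 0.747 before T (47 members), 0.696 before C (82), 0.628 before G (104) and 0.512 before A (101). These are descriptions over members, with no test.

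Levels also differed with where TAG fell in the reading frame, a split that was chosen after the values had been seen. Per the GENCODE annotation, both forms were coding at 527 members, the longer form only at 30, the shorter only at 21 and neither at 39. Among tested TAG members, counted once per acceptor pair, the median was 0.0406 in phase 0 (5 members, 0.00442 to 0.171), 0.827 in phase 1 (27 members, 0.0735 to 0.981) and 0.839 in phase 2 (13 members, 0.282 to 0.99). Other triplets showed no such gap, with medians of 0.686, 0.683 and 0.659 in phases 0, 1 and 2 (151, 157 and 84 members). In phase 0 the extra TAG is an in-frame stop codon. Coding was scored at the base after the 3 extra bases, which lies past that stop. That the longer form was scored as coding in 0 of the 6 phase 0 TAG members therefore follows from the definition. The sixth of these members had too few reads to be tested. With that member included, the phase 0 TAG median was 0.0957. Exosc2 is both one of these 5 and one of the 3 members with GAG before the longer exon, so it counts in both descriptions. Uqcc1, another of the 5, is among the 10 tested members with AAG there, whose median was 0.363. Galt, also of the 5, has CAG there. Whether the frame or the triplet before the longer exon goes with these low levels was not tested.

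**Figure D3:**
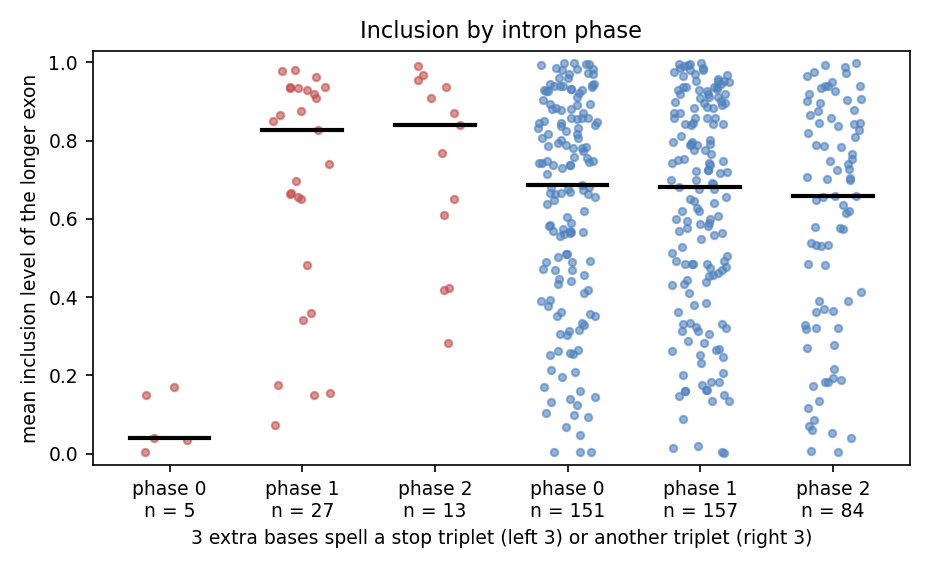
Mean inclusion level of the longer exon over 6 libraries (y axis) by intron phase for tested acceptor pairs whose 3 extra bases are TAG (left 3 columns, red) or another triplet (right 3, blue), with bars at the medians. The 5 pairs with the stop triplet in phase 0 lie between 0.00442 and 0.171, and the other medians lie between 0.659 and 0.839.

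The 5 tested members with an in-frame TAG kept low levels in every library of both sets. Exosc2 had 0.0171, 0.00619 and 0 in set 1 and 0, 0.00321 and 0 in set 2. Mkln1, which encodes muskelin, a subunit of a ubiquitin ligase, had 0.0301, 0.0309 and 0.0429 in set 1 and 0.0253, 0.0470 and 0.0290 in set 2. Uqcc1, an assembly factor of respiratory complex III, had 0.0370, 0.0397 and 0.0339 in set 1 and 0.0627, 0.0217 and 0.0488 in set 2. All 3 stayed at or below 0.0627 in every library, on 153.2 to 303.2 reads per library on average. The others were less deeply covered and higher: Galt, an enzyme of galactose metabolism, averaged 26.33 reads and had 0.128, 0.215 and 0.150 in set 1 and 0.220, 0.172 and 0.141 in set 2. Cep250, a protein of the centrosome linker, averaged 26.17 reads and had 0.267, 0.102 and 0.165 in set 1 and 0.104, 0.165 and 0.102 in set 2. The sets overlapped at each of these 5 members.

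Levels lay close together over the libraries at several members that were named for their many reads. Over all 487 tested members, with a median of 102.5 reads, the libraries of a set spanned more. That span had a median of 0.0695 in set 1 and 0.0642 in set 2. Of the members below, Srsf5 lies just under the range of 0.2 to 0.8 and was named from the list of splicing regulators. Srsf5, a splicing factor of the SR family, averaged 1063 reads at the pair where the longer exon runs over chr12:80949717-80950503. It preferred the downstream acceptor, with levels of 0.182, 0.206 and 0.194 in set 1 and 0.184, 0.206 and 0.187 in set 2. Srsf10, an SR protein that can act as a repressor, preferred the upstream one, with 0.739, 0.749 and 0.759 in set 1 and 0.746, 0.722 and 0.727 in set 2 on 1340 reads. The 6 libraries of each lay within a narrow band, and the sets overlapped at both. As printed above, both have a TAG before and a CAG within the longer exon, so the same pair of triplets went with levels on either side of an even split. Eif4g1, the scaffold of the translation initiation factor eIF4F, shares these triplets too, with 0.375, 0.370 and 0.332 in set 1 and 0.367, 0.334 and 0.357 in set 2 on 1314 reads.

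Further deeply read members belonged to RNA-binding and signalling genes. Rbm8a, the Y14 subunit of the exon junction complex, had 0.461, 0.494 and 0.471 in set 1 and 0.480, 0.477 and 0.467 in set 2 on 1786 reads, close to an even split in every library. Pcbp3, a poly(C)-binding protein, had 0.673, 0.674 and 0.681 in set 1 and 0.671, 0.678 and 0.664 in set 2 on 1695 reads. Gnb1, a G protein beta subunit, had 0.282, 0.279 and 0.271 in set 1 and 0.297, 0.281 and 0.277 in set 2 on 2504 reads, at a pair where neither form was annotated as coding. The sets overlapped at all 3. Cnbp, a zinc finger protein that binds single-stranded nucleic acids, had 0.342, 0.337 and 0.346 in set 1 and 0.303, 0.336 and 0.345 in set 2 on 1852 reads, although the triplet before its longer exon is TTG and not an AG.

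Rbm3, a cold-inducible RNA-binding protein, was the most deeply read member, with a mean of 3338 reads per library. Its longer exon runs over chrX:8143247-8143332. The longer form had 1712 of 3481, 1792 of 3505 and 1518 of 3031 reads in set 1 and 1674 of 3531, 1640 of 3403 and 1426 of 3075 reads in set 2. The levels were 0.489, 0.508 and 0.498 in set 1 and 0.471, 0.479 and 0.460 in set 2, so every library of set 1 lay above every library of set 2. The difference was 0.0280, with an unadjusted p of 0.0245 and an adjusted p of 0.746 in the quasi-binomial test over all events, and it was not called.

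At the ends of the range, the deepest members were used almost alone in 1 direction. Etv4, an ETS-family transcription factor, had mean levels of 0.979 in set 1 and 0.979 in set 2, Srrt, an RNA-processing partner of the cap-binding complex, 0.972 and 0.979, and the chromatin regulator Ankrd11 0.966 and 0.960. At the low end were Exosc2 and G6pdx, glucose-6-phosphate dehydrogenase, at 0.00968 and 0.00556. Prim1, the catalytic subunit of primase, stood at 0.00196 and 0.00386, and neither its extra triplet, CAC, nor the triplet before it, CAT, holds an AG.

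No tandem 3-base acceptor passed the test between set 1 and set 2. The quasi-binomial test compares the share of reads on the longer form between the sets. Its spread is estimated for each event and shrunk toward a trend over events of the same kind. An event was called with a Benjamini-Hochberg adjusted p, taken over all events, under 0.05 and a difference of 0.10 or more. The test called 0 of 487 members, against 11 of 39419 events of all kinds (0.0279%). The smallest adjusted p of a member was 0.746, and 26 members had an unadjusted p under 0.05, which is 5.34% of members beside 3.8% of all events. A limma fit to logit levels also called 0 members and 0 events (0.0%), with a smallest adjusted p of 0.779 and 30 members at an unadjusted p under 0.05, beside 3.3% of all events. A p that misses the threshold does not show that the sets are alike.

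Most differences of the members were below 0.05 in size. Their median was 0.00473, against 0.000811 over all events, and it was 0.00258 without library 3 of set 2 and 0.00313 without library 2 of set 1. Over levels from 0.05 to 0.95 the median difference was 0.00713 for members, 0.00068 for all events and 0.000614 for the other acceptors. The median absolute difference was 0.0230. Within a set, the 3 libraries of a member spanned a median of 0.0695 in set 1 and 0.0642 in set 2. A span of 3 single libraries tends to exceed a difference of 2 means, so the 2 measures are not on 1 scale. Over all events the median absolute difference was 0.0083, and the spans were 0.0187 in set 1 and 0.0215 in set 2. The absolute difference was under 0.05 at 381 members and 0.10 or more at 31, which is 6.37% of members beside 2.62% of all events and 2.57% of the other acceptors. Since a level near 0 or 1 leaves little room to differ, the share was also taken over levels from 0.05 to 0.95, where it was 7.42% of members beside 8.65% of all events and 6.85% of the other acceptors. The median over the members was 0.711 in set 1 and 0.701 in set 2, and the share of their reads on the longer form was 61.3%, 61.5% and 60.9% in set 1 and 61.1%, 60.8% and 60.7% in set 2.

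**Figure D4:**
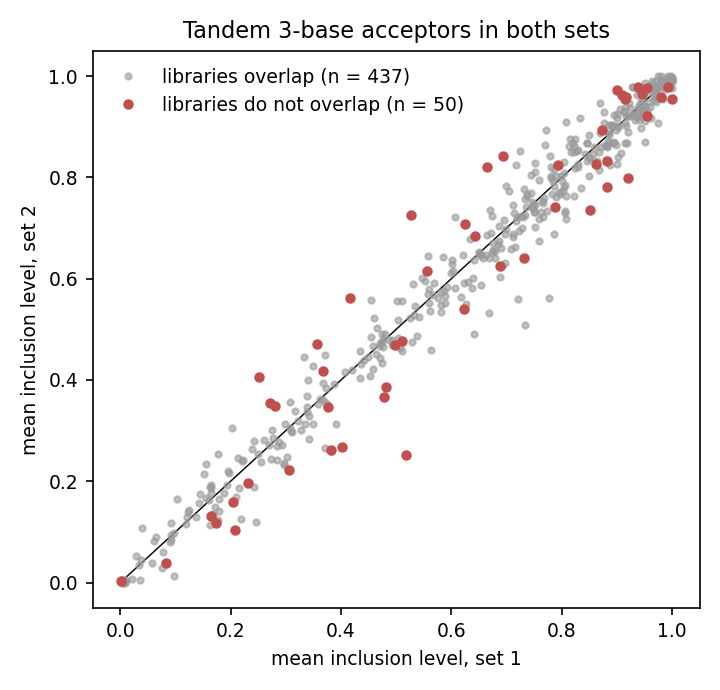
Mean inclusion level in set 1 (x axis) and set 2 (y axis) of the 487 tested members, with the line of equal levels. The 50 members whose libraries do not overlap between the sets (red) lie on both sides of the line, 28 higher and 22 lower in set 1, among 437 whose libraries overlap (grey).

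At 50 members (10.3%) no library of 1 set fell within the range of the other, against 5.93% of all events and 7.43% of the other alternative acceptors. All 3 libraries of set 1 lay above those of set 2 at 28 members (5.75%, beside 3.23% of all events and 3.44% of the other acceptors) and below them at 22 (4.52%, beside 2.7% and 3.99%). Among events with a level from 0.05 to 0.95 the shares were near each other, 43 of 418 members (10.3%) beside 10.2% of all events and 7.96% of the other acceptors, so the count is near its background once both forms are in use. None of the members named next was called, and each had an adjusted p of 0.746 in the quasi-binomial test.

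Among members whose libraries do not overlap, the 8 largest differences with set 1 higher included genes of membrane, motor, repair and decay functions. Fxyd5, a regulator of the sodium pump, had 0.559, 0.597 and 0.397 in set 1 and 0.241, 0.228 and 0.288 in set 2. This is the widest difference of the 8, and it rests on few reads, the longer form having 9 of 16, 3 of 5 and 6 of 15 reads in set 1 and 9 of 37, 9 of 39 and 9 of 31 reads in set 2. Myo9b, an unconventional myosin, had 0.382, 0.404 and 0.420 in set 1 and 0.235, 0.309 and 0.260 in set 2. The longer form had 40 of 104, 48 of 118 and 47 of 111 reads in set 1 and 33 of 139, 34 of 109 and 26 of 99 reads in set 2, and the unadjusted p was 0.00580. Rev1, a DNA polymerase of translesion synthesis, had 0.952, 0.930 and 0.879 in set 1 and 0.769, 0.820 and 0.806 in set 2, with an unadjusted p of 0.00571. Cast, which encodes the calpain inhibitor calpastatin, had 0.858, 0.874 and 0.824 in set 1 and 0.755, 0.782 and 0.671 in set 2. Edc4, a scaffold of mRNA decapping, had 0.506, 0.460 and 0.469 in set 1 and 0.444, 0.310 and 0.347 in set 2, where the closest libraries nearly met. The other 3 had mean levels of 0.382 in set 1 and 0.262 in set 2 (Sppl2b, an intramembrane protease), 0.208 and 0.103 (Trappc8, a subunit of a vesicle-tethering complex) and 0.482 and 0.387 (Glcci1). Unadjusted p in the quasi-binomial test was 0.0941 for Sppl2b, 0.0153 for Trappc8 and 0.108 for Glcci1.

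Among the same members, the 8 largest differences with set 1 lower included cytoskeletal and signalling genes. Gab2, a docking protein of receptor tyrosine kinases, had 0.731, 0.731 and 0.617 in set 1 and 0.820, 0.802 and 0.903 in set 2, and the smallest unadjusted p of all members, 0.00466. The longer form had 44 of 60, 44 of 60 and 49 of 79 reads in set 1 and 74 of 90, 45 of 56 and 66 of 73 reads in set 2. The gap between the closest libraries of the sets was smaller than the span within either set. Fmnl1, a formin that elongates actin filaments, had 0.587, 0.330 and 0.664 in set 1 and 0.670, 0.786 and 0.725 in set 2, on only 12 and 6 reads in the libraries of set 1 with the lowest and the highest level. Its difference was -0.20, and -0.101 without library 2 of set 1, the lowest. Sufu, the negative regulator of Hedgehog signalling, had 0.462, 0.446 and 0.341 in set 1 and 0.618, 0.530 and 0.535 in set 2. Tfdp2, a partner of E2F factors, had 0.110, 0.315 and 0.330 in set 1 and 0.462, 0.352 and 0.403 in set 2, with library 1 of set 1 well below the rest. Its difference was -0.154, and -0.0828 without that library. Mean levels of the other 4 were 0.664 in set 1 and 0.821 in set 2 (Rnf25, a ubiquitin ligase), 0.356 and 0.471 (Trip10, a membrane-curving partner of Cdc42, with a difference of -0.115 that was -0.064 without library 2 of set 1), 0.271 and 0.355 (Hgs, an endosomal sorting protein) and 0.624 and 0.708 (Otud4, a deubiquitinase). The closest libraries of Otud4 nearly met, at 0.666 in set 1 and 0.671 in set 2. Map2, the dendritic microtubule-associated protein, had one of the 5 smallest p, 0.0132, with levels of 1, 1 and 1 in set 1 and 0.949, 0.937 and 0.976 in set 2. Its longer form had 75 of 79, 45 of 48 and 41 of 42 reads in set 2, so the difference rests on few shorter-form reads.

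**Figure D5:**
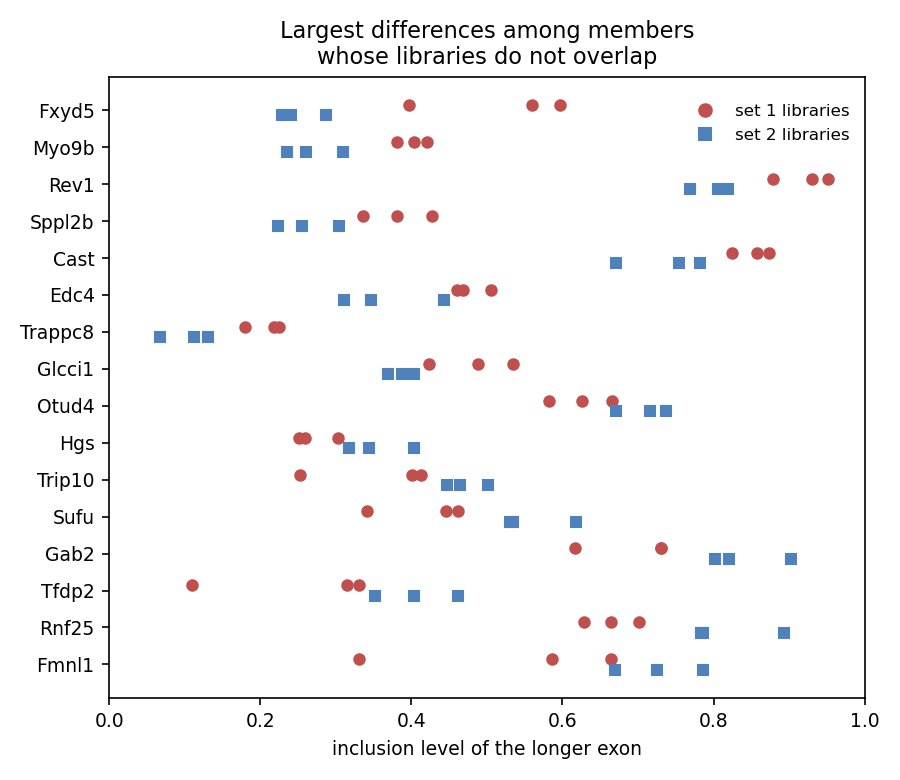
Inclusion level of the longer exon (x axis) in each library of set 1 (red circles) and set 2 (blue squares) for the 8 largest differences in each direction among members whose libraries do not overlap, from Fxyd5, 0.518 in set 1 and 0.252 in set 2, to Fmnl1, 0.527 in set 1 and 0.727 in set 2. None was called by the quasi-binomial test.

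In the authors' deposited table, 5 members had an adjusted p under 0.05 and a difference of 0.10 or more, 0.81% of members against 0.645% of all rows. The share was 0.382% of the other alternative acceptors. Of these calls in the authors' deposited table, 3 were higher in set 1, beside 0.357% of all rows, and 2 were lower, beside 0.287%. Of these 5, only Rev1 had a mean of 20 or more reads. In the authors' deposited table Rev1 had an adjusted p of 0.0276, with 60, 67 and 81 reads on the longer form in set 1 and 71, 69 and 63 in set 2, and 3, 5 and 11 reads on the shorter form in set 1 and 21, 15 and 15 in set 2. Parp11, Wac, Rnf10 and Pprc1 had means of 11.83, 9.667, 3.167 and 2.833 reads. The called rows of Rnf10 and Pprc1 join a rarely used upstream exon to an acceptor pair that has a second, deeper row. In that row Rnf10, with a mean of 417.3 reads, stood at 0.0974 in set 1 and 0.0981 in set 2, and Pprc1, with 191.3 reads, at 0.534 and 0.545.

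Members were also counted over 12 lists of genes by function. The acceptor recognition list, which holds U2AF, SF1, SF3 and second-step factors, had 24 genes in the table and 0 with a tandem 3-base acceptor. Of its 97 tested events of any kind, the quasi-binomial test called 1, a skipped exon of U2af1 at 0.981 in set 1 and 0.870 in set 2 (adjusted p = 0.000423), beside 0.0279% of all events. U2af1 encodes the subunit that contacts the AG. In the authors' deposited table a skipped exon of Slu7, a second-step factor, was called as well, beside 0.645% of all rows. It stood at 0.418 in set 1 and 0.269 in set 2, and the quasi-binomial test did not call it (adjusted p = 0.746).

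Among hnRNP and other splicing regulators, 12 of 64 genes in the table held a member (18.8%), with 13 tested pairs, of which 1 did not overlap between the sets, beside 10.3% of all tested members. That was Rbm5, an apoptosis-linked splicing regulator, at 0.979, 0.979 and 0.982 in set 1 and 0.933, 0.966 and 0.976 in set 2. Hnrnpr, of the hnRNP family, had 0.498, 0.539 and 0.483 in set 1 and 0.421, 0.521 and 0.449 in set 2, and the sets overlapped. Mean levels were 0.532 in set 1 and 0.528 in set 2 for Ptbp2, the neuronal polypyrimidine tract-binding protein, 0.373 and 0.354 for Celf1, and 0.287 and 0.278 for the neuronal Elavl2.

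Chromatin regulators had a member in 15 of 68 genes (22.1%), and 3 of their 18 tested pairs did not overlap, a count that here and in the next lists stands beside 10.3% of all tested members and 5.93% of all events. The maintenance methyltransferase Dnmt1 had mean levels of 0.580 in set 1 and 0.547 in set 2, the remodelling ATPase Smarca4 0.737 and 0.767, and the BAF subunit Arid1a 0.0899 and 0.0804. Smarca4 was also the 1 gene with a member among the 5 in the table from a list of genes known for tandem 3-base acceptors. Transcription factors had a member in 9 of 52 genes (17.3%), and 1 of 14 tested pairs did not overlap. Cytoskeletal genes had one in 11 of 49 (22.4%), and 2 of 11 pairs did not overlap, Myo9b and Map2. Synaptic and channel genes had one in 6 of 31 (19.4%), with 0 of 3 pairs apart, among them both pairs of the calcium channel subunit Cacna1b, at 0.476 in set 1 and 0.480 in set 2 and at 0.907 and 0.847. Vesicle traffic genes had one in 4 of 51 (7.84%, 0 of 2 pairs apart), signalling genes in 5 of 44 (11.4%, 1 of 5), translation genes in 4 of 32 (12.5%, 2 of 4), repair genes in 5 of 47 (10.6%, 1 of 5) and RNA decay and export genes in 5 of 42 (11.9%, 3 of 7). The share over all genes of the table was 5.6%. Whether the shares go with the number of events and reads a gene has in the table was not tested.

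Some genes held more than 1 pair, and the levels of such pairs were far apart in some genes and close in others. There were 32 genes with 2 or more tested pairs and at most 3 in a gene. Close pairs were found in Syne2, a nuclear envelope protein, at 0.0831 in set 1 and 0.0393 in set 2 and at 0.0768 and 0.0604, and in Mbd6, a methyl-CpG-binding domain protein, at 0.449 and 0.446 and at 0.511 and 0.457. Tcf3, a basic helix-loop-helix factor, had CAG as the extra triplet at 3 pairs, with mean levels of 0.917 in set 1 and 0.922 in set 2, 0.563 and 0.460, and 0.255 and 0.237. The corepressor Ncor1 likewise had 3 CAG pairs, at 0.712 and 0.745, 0.588 and 0.552, and 0.243 and 0.279. Nolc1, a nucleolar phosphoprotein, had 0.189 and 0.178 at one pair and 0.454 and 0.485 at another, on means of 744.2 and 477.3 reads.

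The same acceptor pair was sometimes listed from more than 1 upstream exon: 33 pairs took up 68 rows. With at least 20 reads in both rows, 11 comparisons at 10 pairs could be made, and in 5 of them the levels lay within 0.10 of each other. Szrd1 had 0.796 from one exon and 0.821 from the other, and Sbno1 0.754 and 0.744. The libraries did not overlap in 4 comparisons, each between a rarely used upstream exon and the main one. Rbm3 stood at 0.968 (0.893 to 1 over the libraries) from the rare exon, against 0.484 (0.460 to 0.508) from the main one. Pcbp3 stood at 0.992 and 0.987 from 2 rare exons, against 0.674. The longer form of these rare rows had 1.28% of the reads of the main row's longer form in Rbm3 and 3.11% and 3.10% in Pcbp3. The 2 rare rows of Pcbp3 had 214 and 213 longer-form reads in all and 2 shorter-form reads each. Whether the same reads were counted in more than 1 row was not tested.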

How the data were processed

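RNA of 6 libraries was sequenced. HISAT2 2.1.0, Bowtie2 2.2.3 and HTSeq 0.6.0 are named, without their roles, in the submitters' processing notes, as is build mm10. The authors deposited 1 table in the layout of the splicing tool rMATS, per the file headers, with whole-number junction counts on the longer (inclusion) and shorter (skipping) form in each library, form lengths, inclusion levels, p-values and adjusted p-values. For its version and annotation, the sources used here give nothing. Every column of per-library values was used, and within a set no library has a number from the labels.

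Levels were recomputed from counts and form lengths with a largest difference of 0.0005 from the deposited levels. Events with a mean of 20 or more reads were tested: inclusion and skipping counts by a moderated quasi-binomial F test (R 4.3.3, limma 3.58.1), with a floor of 1 on dispersions, which were shrunk along a trend in the rarer form's reads (prior from events with 5 or more of them), a fit within each kind of event, and Benjamini-Hochberg adjustment over all kinds. Logit levels held between 0.01 and 0.99 were also fitted with limma. The quasi-binomial test was checked on simulated counts of alternative acceptors, and the limma fit was not. An edgeR test had been listed as an alternative and was not run, since the counts come as lists within a cell.

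The 3 extra bases, intron phase and coding status were read from GENCODE vM21 transcripts and annotation. No genome sequence was used, so intron bases are known only where another transcript runs through them. A form is called coding where any transcript with that form codes at the base after the 3 extra bases. A longer form that codes only up to a stop within the 3 bases is therefore scored as not coding.

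The members, gene lists and rules were chosen with earlier results of these data known. Named members are those the authors called; the 8 largest differences in each direction whose libraries do not overlap; the 5 of smallest p; the 8 of most reads from 0.2 to 0.8; the 3 of most reads above 0.95 and below 0.05; up to 3 per gene list; and any in Hnrnpdl or Hnrnpd. The TAG members in phase 0, upstream GAG members, genes with several pairs, Uchl5, Rbm5, Hnrnpr, Ptbp2, Celf1 and Elavl2 were named after their values were seen. Some members that the naming rule or the comparisons would include are not reported here.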

Additional observations from a re-analysis of the deposited data

How the results depend on the processing

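The count of members called by the quasi-binomial test stayed at 0 with a minimum mean count of 10, 50 or none, without the minimum difference, with limma on logit levels and without each library in turn, where the smallest adjusted p of a member was 0.71 to 0.851. Over all events the call count was 2 to 19 without a library. The authors' deposited table held 1 called member in place of 5 when a mean count of 20 or more was asked. With 1 library left out, which makes non-overlap easier to meet, members whose libraries do not overlap numbered 85 to 108. The median level was 0.687 at a minimum of 50 reads, 0.676 with no minimum, 0.690 with 1 row per acceptor pair and 0.698 to 0.707 without a library, and the CAG median was 0.613 with no minimum. The median of the in-frame TAG members was 0.0957 with a minimum of 10 or none, where the sixth such member entered, and 0.0362 to 0.0444 without a library; this result and its alternatives were chosen after seeing the data. Of 482 alternative values 468 stayed within the limits set (a count within 1.5 times, a level or median within 1 SD of the libraries, a tested difference on the same side of 0 and of the call), 14 moved past them and 0 reversed. Within these limits, leaving out 1 library still gave a mean level of 0.00188 for Exosc2, against 0.00442 with all 6, and of 0.00402 for G6pdx, against 0.00762, and members using both acceptors numbered 351 at levels from 0.1 to 0.9. Many of the values had little or no room to move. Leaving out 1 of 6 libraries cannot shift the mean level of a member by 1 SD of those libraries. The named differences, none of them called, could fail only by a change of sign or a new call. The count of 468 is therefore not a measure of stability. No paired analysis was possible because the columns carry no replicate numbers from the labels. The edgeR alternative was not run. Depth limits the members under 20 reads, 130 of 617, which were not tested.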

Other observations

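A few members had an extra triplet that does not end in AG, so that the downstream acceptor, which makes the shorter form, lacks an AG there. Eftud2, a GTPase of the U5 snRNP, has ATG (chromosome 11, minus strand, 102871185), and the longer form, over a mean of 918 reads, had levels of 0.103, 0.0827 and 0.0896 in set 1 and 0.0815, 0.103 and 0.0998 in set 2, so most of its reads were on the shorter form. E2f5, an E2F-family transcription factor, has TAC and stood at 0.00287 over the 6 libraries, nearly all on the shorter form. Prim1, at 0.00291, has CAC, and the triplet before its longer exon is CAT, so an AG was read at neither of its acceptors. Celf4, an RNA-binding protein of neurons, has CTG at one of its 3 pairs and stood there at 0.747 in set 1 and 0.751 in set 2; its shorter form thus had the smaller part of the reads. These members were chosen after their values were seen, and the cause was not tested.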
